A study of Mus musculus with 192 samples.

Results

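The transcriptome of inter-scapular brown adipose tissue (iBAT) was compared between wild-type (WT) mice that had lived on the International Space Station and WT mice of the ground control. The libraries were chosen by their labels for tissue, genotype and condition, and there were 12 of the 192 in the series, namely 6 of flight mice (FL_WT) and 6 of ground control mice (GC_WT), 1 library per mouse. Each of the 12 mice lived alone in a cage of the same design. Apart from housing, the study describes tail blood sampling of flight and ground mice. All were males, C57BL/6 by the labels and C57BL/6J by the study's methods, and 12 weeks old according to the labels. The study's methods give 12 weeks as the age before launch, so flight mice were older than this label at dissection. FL_WT mice were launched, stayed in orbit for about a month, returned in a capsule that splashed down at sea, and were dissected in a laboratory in the United States some days later, after a series of behavioral tests. GC_WT mice went through a simulation of this schedule in Japan some months later. The study's methods name flight food for the mice prepared for launch and CRF-1 for the ground control. Orbit, launch, landing, the journey to the laboratory, the place and date of dissection, and any difference in food therefore cannot be told apart in these samples. Some comparisons below also use iBAT of 6 ground (GC_KO) and 5 flight (FL_KO) Nrf2-KO mice, which lack the transcription factor Nrf2 in every tissue, and epididymal white adipose tissue (eWAT) of the same 12 WT mice.

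Brown fat burns fuel to make heat. Its adipocytes are packed with mitochondria whose inner membrane carries uncoupling protein 1 (Ucp1), which lets protons flow back without making ATP. Noradrenaline from sympathetic nerves acts on beta-adrenergic receptors, raises cyclic AMP and releases fatty acids from lipid droplets, which both feed the mitochondria and open Ucp1. Brown fat also takes up glucose avidly and makes fatty acids from it, and in an active depot synthesis and oxidation of fatty acids run side by side.

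The libraries held 16092929.0 to 16308175.0 estimated counts in GC_WT and 15804835.0 to 15967075.0 in FL_WT, so depth barely differed. Levels below are CPM, counts scaled to the size of the library, after TMM normalisation (normalised CPM), a scale that compares a gene between mice but not genes with each other. Fold changes are log2 ratios of FL_WT over GC_WT from edgeR's quasi-likelihood fit, and a gene was called where its p-value, adjusted over all genes tested by the Benjamini-Hochberg method, was under 0.05. A list of 13 markers of brown adipocytes, such as Ucp1 and Cidea, had a summed TPM (a share of all transcripts, corrected for transcript length) of 16460 to 18770 in GC_WT and 17960 to 21280 in FL_WT. Much of this sum was Fabp4, which white fat also expresses, with a mean of 9160 TPM in GC_WT and 10560 in FL_WT. The sum therefore cannot tell brown from white fat. Cidea had a mean of 2216 TPM in GC_WT and 2538 in FL_WT. Nfe2l2, which encodes Nrf2, stood at 35.6 to 40.5 TPM in GC_WT and 34.6 to 57.1 in FL_WT, against 11.8 to 16.5 in GC_KO. Transcripts of the mitochondrial genome and its nuclear copies took 57.7 to 62.9% of TPM in GC_WT and 52.2 to 58.0% in FL_WT, and the scales differed in where they put the middle of the distribution. The median gene stood 0.31 higher in FL_WT on the log2 TPM scale, 0.17 higher once TPM were rescaled without those transcripts, and 0.03 higher on the TMM scale.

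FL_WT mice 06 and 08 carried transcripts of skeletal muscle. The summed TPM of 32 muscle genes was 11980 in mouse 06 and 5857 in mouse 08, against 65.6 to 120 in the other 4 flight mice and 71.2 to 137 in GC_WT. Acta1, the actin of muscle fibres, had a normalised CPM of 1775 and 872 in these mice and at most 15.2 in the other 10. With all 6 flight mice edgeR called 23 of 29 muscle genes tested higher in FL_WT and DESeq2 called 22, while limma on log2(TPM + 1) called 0 of 31. Without mice 06 and 08 edgeR tested 26 and called 0 (0 also at an unadjusted p under 0.05). The mice were singled out by these very transcripts, so that the calls go with them follows from the choice and is no test. How the muscle transcripts came into these libraries was not tested. The edgeR counts of the flight effect by gene list in WT iBAT are therefore given also without these mice.

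**Figure D1:**
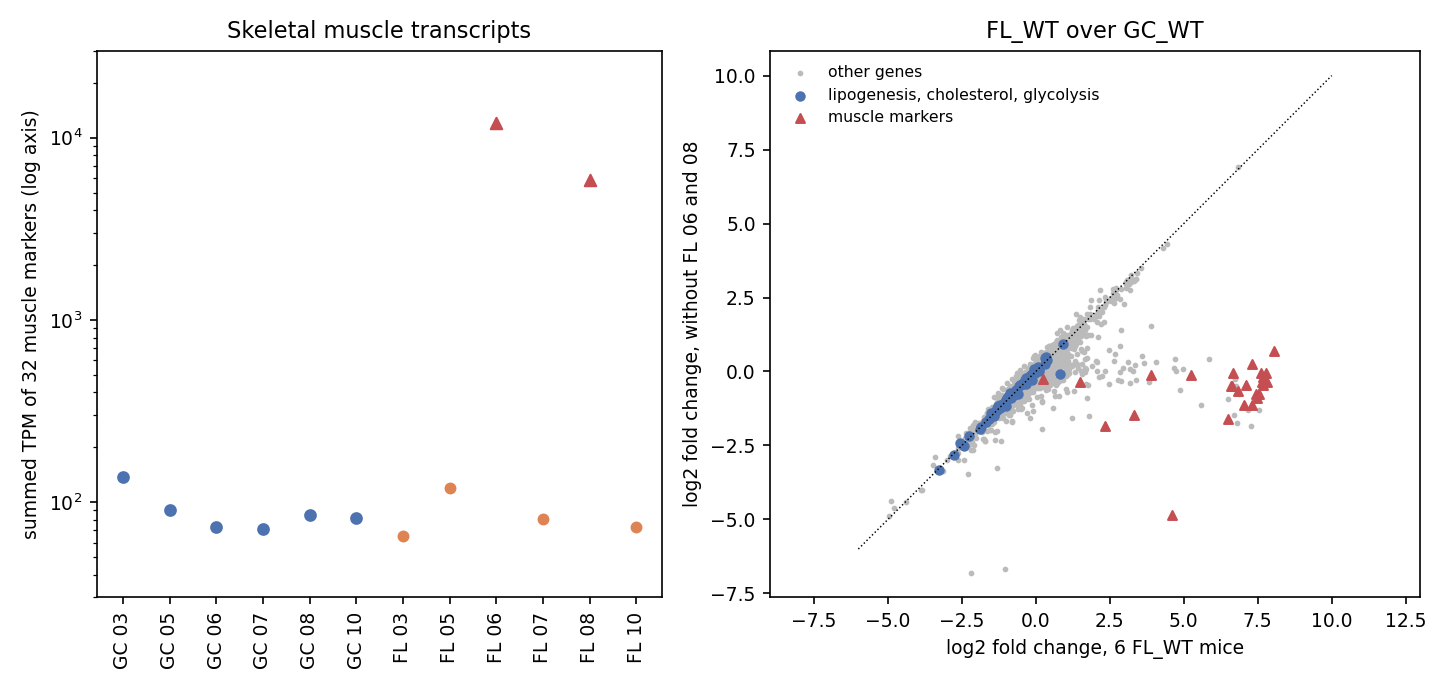
Skeletal muscle transcripts in the WT iBAT libraries. On the left, each point is the summed TPM of 32 muscle genes in 1 mouse on a log axis, with GC_WT in blue, FL_WT in orange and FL_WT mice 06 and 08 as red triangles at 11980 and 5857. On the right, each point is a gene, with its log2 fold change with all 6 FL_WT mice on the x axis and without mice 06 and 08 on the y axis. Muscle genes (red triangles) leave the dotted line of equal values, while genes of lipogenesis, cholesterol synthesis and glycolysis (blue) lie along it.

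Flight and ground mice differed in a wide part of the transcriptome. Of 13574 genes tested, 2600 were called, which is 19.2%, with 1199 higher in FL_WT (8.83%) and 1401 lower (10.3%). Without mice 06 and 08, 2070 of 13650 genes were called (15.2%), 942 higher (6.90%) and 1128 lower (8.26%), and 1852 genes were called in the same direction in both fits. The split between directions depends on the scale. With limma on log2(TPM + 1), 4751 of 8006 genes were called (59.3%), 4460 higher (55.7%) and 291 lower (3.63%), so that 93.9% of calls were higher, against 46.1% with edgeR. After rescaling TPM without mitochondrial transcripts 3183 of 7985 genes were called (39.9%), 2575 higher (32.2%) and 608 lower (7.61%). For that reason small shifts of whole gene groups are given on each scale, and also relative to the median gene of the same scale.

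Among 25 lists of genes by function, that of fatty acid synthesis had the lowest median. Of 22 genes of lipogenesis, 16 fell, 0 rose, and the median log2 fold change was -1.24, while 10.3% of all genes were called lower and the median over all genes tested was 0.02. Without mice 06 and 08 the same number fell, 1 rose (Gpam, which adds the first fatty acid to glycerol phosphate), and the median was -1.21. In 15 of the 22 genes every flight mouse was below every ground mouse, as was the case in 4.77% of all genes (8.24% had no overlap in either direction). On the log2(TPM + 1) scale, limma called 13 of 21 lower and 2 higher, with a median of -1.0. Since the tissue was measured in bulk, fewer cells of a type and less RNA per cell cannot be told apart.

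Acly, ATP citrate lyase, splits citrate in the cytosol into the acetyl-CoA from which fatty acids are built. Its normalised CPM in the GC_WT mice was 975 at the lowest, 1791 at the median and 3157 at the highest, and in FL_WT 127, 157 and 321. The groups did not overlap, and the highest flight mouse was still far below the lowest ground mouse. The log2 fold change was -3.26 (SE 0.30, edgeR adjusted p = 2.72e-07), and -3.34 without mice 06 and 08. Acaca, acetyl-CoA carboxylase 1, which makes the malonyl-CoA for chain building, ranged from 1799 through a median of 2005 to 2766 in GC_WT and from 286 through 430 to 746 in FL_WT. This gave a log2 fold change of -2.26 (SE 0.19, edgeR adjusted p = 9.84e-08). Fasn, fatty acid synthase, assembles the chain and had 2976 TPM ± 842 (SD, n = 6) in GC_WT and 612 ± 252 (n = 6) in FL_WT. Its normalised CPM was 16320, 21420 and 29590 in GC_WT at the lowest, the median and the highest mouse, and 2117, 3134 and 6215 in FL_WT. The log2 fold change of Fasn was -2.56 (SE 0.23, edgeR adjusted p = 2.15e-07), and -2.43 without mice 06 and 08.

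The enzymes that extend and desaturate the chain went the same way. Scd1, the main stearoyl-CoA desaturase of adipose tissue, had 19560, 28090 and 37520 normalised CPM at the lowest, the median and the highest GC_WT mouse, and 9560, 11460 and 12160 in FL_WT (log2 fold change -1.35, SE 0.20, edgeR adjusted p = 6.28e-05). Flight mice lay closer together than ground mice, and all were below them. Scd2, a related desaturase, fell from a median of 285 to 30.5 (log2 fold change -2.78), and the elongase Elovl6 from 928 to 307 (-1.53). Lower were also the citrate carrier Slc25a1 (-1.47), acetyl-CoA synthetase Acss2 (-1.42), the carboxylase partner Mid1ip1 (-1.90), Thrsp, a thyroid hormone-responsive activator of lipogenesis (-1.57), and the lipid remodeling enzyme Pnpla3 (-1.86). At the stage of triglyceride assembly the picture was mixed. Agpat2 (-0.72) and Lpin1 (-0.89) fell, whereas Dgat1 and Dgat2, which attach the last fatty acid, had log2 fold changes of -0.04 and -0.34 and were not called.

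The transcription factors that drive these enzymes changed less than their targets. Mlxipl (ChREBP, the carbohydrate-responsive factor) ranged from 292 to 557 normalised CPM in GC_WT with a median of 333, and from 179 to 265 in FL_WT with a median of 190. The groups did not overlap (log2 fold change -0.86, SE 0.21, edgeR adjusted p = 0.00521). Srebf1, which encodes the sterol and insulin-responsive factor SREBP-1, ranged from 143 to 461 in GC_WT and from 121 to 187 in FL_WT. These ranges overlapped, and with a log2 fold change of -0.76 (SE 0.31) it was not called (edgeR adjusted p = 0.0937). Both factors also act through protein processing and location, which transcript levels do not show.

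**Figure D2:**
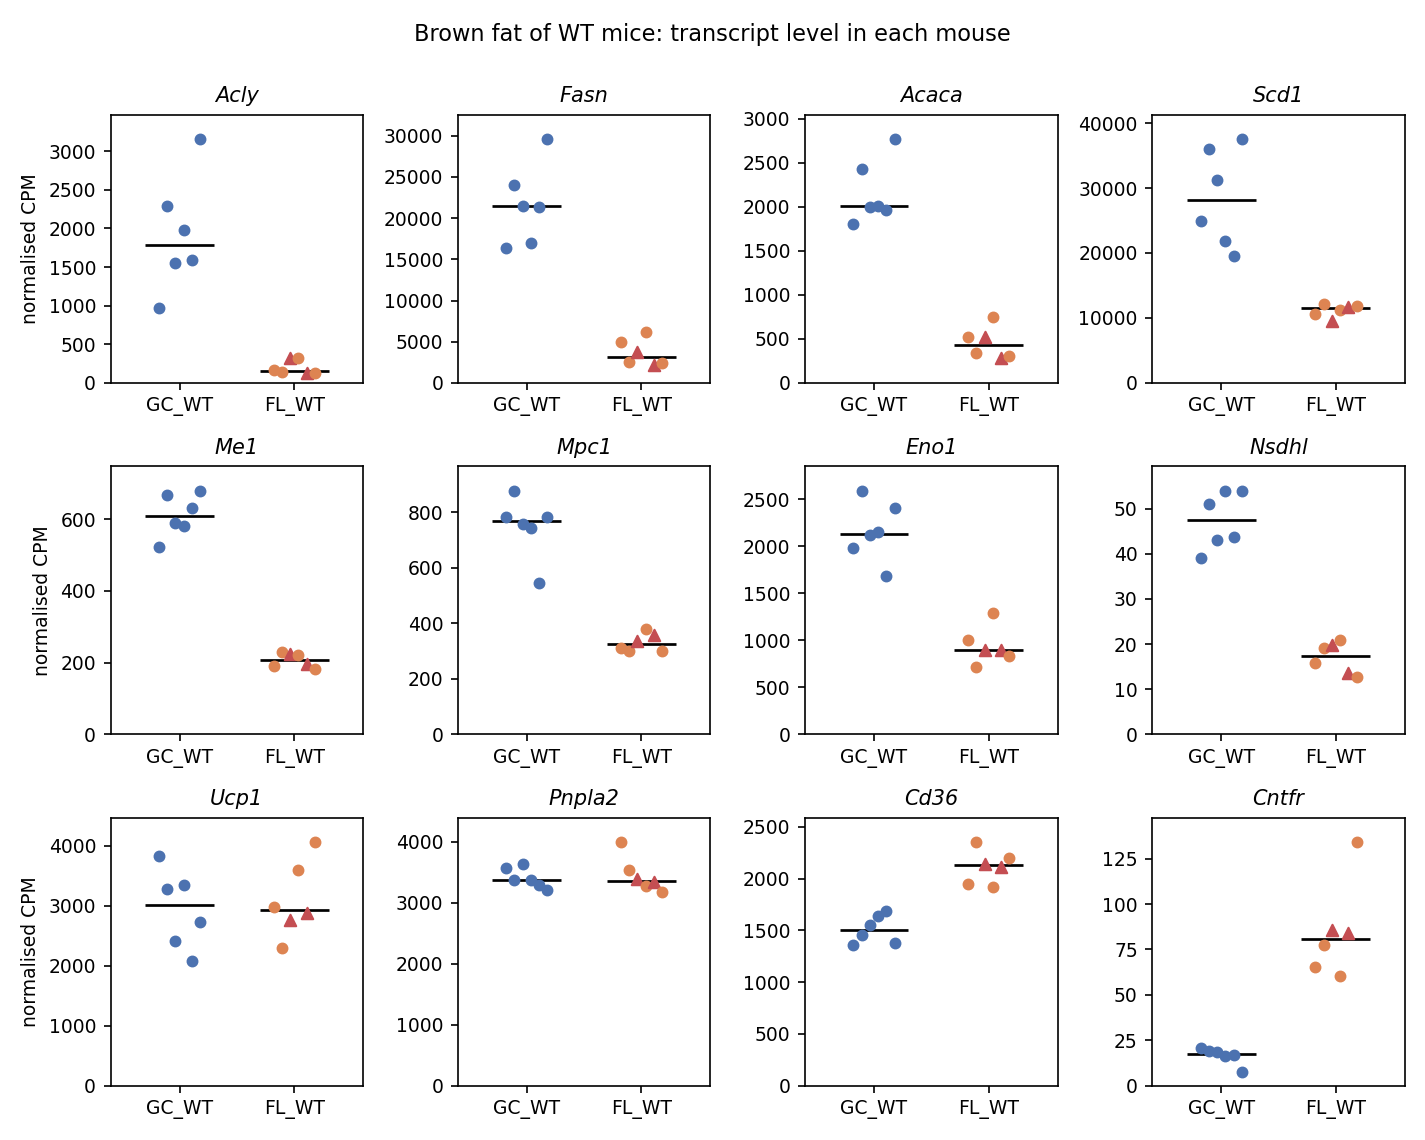
Normalised CPM of 12 genes in each WT mouse, on linear axes that start at 0. Blue points are GC_WT, orange points FL_WT, red triangles FL_WT mice 06 and 08, and bars are group medians. In Acly, Fasn, Acaca, Scd1, Me1, Mpc1, Eno1 and Nsdhl every flight mouse lies below every ground mouse, in Cd36 and Cntfr above, and in Ucp1 and Pnpla2 the groups overlap.

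The promoters of 3 of these genes are shown because the genes fell strongly and differ in what their upstream sequence holds. Each sequence is the 250 bases before the transcription start, from RefSeq on GRCm38.p6, written 5′ to 3′ on the strand of the gene. Capitals mark matches to CCAAT or its reverse complement ATTGG, the letters of the motif bound by the factor NF-Y, and the windows were also searched on both strands for CACGTG, the E-box letters, and TCACNCCAC, letters of a sterol regulatory element. The Fasn window lies at chr11:120824548-120824797 on the minus strand, that of Acly at chr11:100528001-100528250 on the minus strand and that of Nsdhl, a gene of cholesterol synthesis, at chrX:72918271-72918520 on the plus strand.
Fasn: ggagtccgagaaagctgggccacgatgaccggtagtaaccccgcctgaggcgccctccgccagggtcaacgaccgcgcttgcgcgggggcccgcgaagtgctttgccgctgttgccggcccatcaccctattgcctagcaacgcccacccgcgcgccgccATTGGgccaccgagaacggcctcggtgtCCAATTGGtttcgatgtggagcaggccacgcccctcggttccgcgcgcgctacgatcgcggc
Acly: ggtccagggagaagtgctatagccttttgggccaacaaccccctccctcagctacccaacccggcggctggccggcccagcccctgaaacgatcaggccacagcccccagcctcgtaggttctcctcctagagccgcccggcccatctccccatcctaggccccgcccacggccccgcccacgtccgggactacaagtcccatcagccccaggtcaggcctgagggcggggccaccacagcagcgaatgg
Nsdhl: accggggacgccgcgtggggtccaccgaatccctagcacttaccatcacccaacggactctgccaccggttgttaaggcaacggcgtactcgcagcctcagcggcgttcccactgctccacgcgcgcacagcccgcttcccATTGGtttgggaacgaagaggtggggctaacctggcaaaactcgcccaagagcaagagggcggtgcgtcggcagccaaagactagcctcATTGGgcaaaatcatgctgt
In Fasn the matches begin 90, 62 and 59 bases before the start, and the last pair overlaps. In Nsdhl they begin 109 and 20 bases before the start. The Acly window held 0 matches to any of the 3 motifs.

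Windows were at hand for 17 of 22 genes of lipogenesis, 20 of 28 of cholesterol metabolism and 25 of 26 of glucose metabolism. CCAAT was present in 33.8% of all 32851 windows of the table. The other shares count genes, and a gene counts where at least 1 of its windows has the motif. They are thus not on the same footing as the shares of windows. CCAAT was present for 40.3% of the 9931 tested genes with a window. It was present for 12 of 12 cholesterol genes called lower and 5 of 8 not called. Of the genes called lower, 8 of 14 lipogenic and 9 of 14 glucose genes had it. CACGTG was in 6.02% of all windows and present for 9.99% of tested genes. It was present for 3 of 12 cholesterol, 3 of 14 lipogenic and 1 of 14 glucose genes called lower, and 3 of 8 cholesterol genes not called. TCACNCCAC was in 1.05% of all windows and present for 1.21% of tested genes. Among genes called lower it was present for 0 of 12, 1 of 14 (Mlxipl) and 1 of 14 (Pkm), respectively, and for 1 of 8 cholesterol genes not called. A match describes letters in a window, and binding was not measured.

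Genes that supply NADPH, the reductant that fatty acid synthesis consumes, fell as well. Of 11 entries for the pentose phosphate pathway and other NADPH sources, 7 were called lower and 0 higher (6 and 0 without mice 06 and 08). In these 7 the groups did not overlap, and 4.77% of all genes were lower without overlap, while 10.3% were called lower. Me1, cytosolic malic enzyme, ranged from 523 through a median of 610 to 680 normalised CPM in GC_WT and from 181 through 208 to 229 in FL_WT. Both groups were tight, and the log2 fold change was -1.56 (SE 0.11, edgeR adjusted p = 2.13e-08). Pgd, the dehydrogenase of 6-phosphogluconate, was at 274, 361 and 490 in GC_WT and at 122, 139 and 163 in FL_WT (log2 fold change -1.36, SE 0.15). Tkt and Taldo1, which interconvert the sugars of the pathway, had log2 fold changes of -1.18 and -0.86 with no overlap between groups. Idh2, the NADPH-making isocitrate dehydrogenase of mitochondria, is counted with the TCA cycle and is not among the 11 entries. It went the other way, from 188 to 276 in GC_WT to 291 to 335 in FL_WT (0.39, SE 0.09, edgeR adjusted p = 0.00307).

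Transcripts of glucose uptake, glycolysis and the entry of pyruvate into mitochondria were lower. Of 26 entries, 16 fell and 0 rose, with a median of -0.61, and without mice 06 and 08 the counts were the same with a median of -0.74. In 11 every flight mouse was below every ground mouse, as in 4.77% of all genes, while edgeR called 10.3% of all genes lower. With limma on log2(TPM + 1), 12 of 24 were lower and 3 higher. Slc2a4, the insulin-responsive transporter GLUT4, was at 327 to 551 normalised CPM in GC_WT with a median of 407, and at 200 to 296 in FL_WT with a median of 251 (log2 fold change -0.79, SE 0.16, edgeR adjusted p = 0.00171). Hk2, which phosphorylates the glucose that enters, went from a median of 425 to 232 (-0.99), with overlap between the groups. Eno1, enolase, was at 1683, 2134 and 2594 in GC_WT and at 720, 898 and 1287 in FL_WT (-1.20, SE 0.12, edgeR adjusted p = 4.44e-07). Gapdh, often used as a reference transcript, went from a median of 779 to 397 (-1.01), and no flight mouse reached a ground mouse.

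The steps that carry pyruvate into the mitochondrion and turn it into acetyl-CoA were among the steadiest differences. Mpc1, a subunit of the mitochondrial pyruvate carrier, had 546, 770 and 877 normalised CPM in GC_WT and 299, 325 and 378 in FL_WT (log2 fold change -1.18, SE 0.10, edgeR adjusted p = 8.28e-08). Pdha1 and Pdhb, the subunits of the E1 component of pyruvate dehydrogenase, had -1.02 and -1.03, again with no overlap. Pdk4, the kinase that switches this enzyme off, had 412, 796 and 1412 in GC_WT and 1307, 1667 and 1965 in FL_WT. It was not called (0.91, edgeR adjusted p = 0.0918). Aldoa is listed under a pair of gene identifiers, both called lower, of which the abundant one went from a median of 2756 to 1662 (-0.59). Of the glycogen regulators, Ppp1r3b, which targets a phosphatase to glycogen, fell from a median of 551 to 147 (-1.79, SE 0.35), and Ppp1r3c from 208 to 129 (-0.73).

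Genes of cholesterol synthesis fell at many steps. Of 28 genes, 17 fell and 0 rose, with a median of -0.75, and 13 fell without mice 06 and 08, with a median of -0.68. In 12 every flight mouse was below every ground mouse, as in 4.77% of all genes, while edgeR called 10.3% of all genes lower. Fdps, which makes farnesyl diphosphate, had 29.7, 42.5 and 55.1 normalised CPM in GC_WT and 10.7, 12.1 and 16.6 in FL_WT (log2 fold change -1.69, SE 0.16, edgeR adjusted p = 3.69e-07). Nsdhl, a demethylation enzyme of the sterol ring whose promoter is printed above, had 39.0, 47.4 and 54.0 in GC_WT and 12.8, 17.4 and 20.8 in FL_WT (-1.49, SE 0.16, edgeR adjusted p = 2.24e-06). Pmvk, phosphomevalonate kinase, had a log2 fold change of -1.43. Insig1, a sterol-regulated brake on SREBP processing, fell from a median of 416 to 163 (-1.22).

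Not every cholesterol gene was lower. Hmgcs1, HMG-CoA synthase of the cytosol, had 147, 202 and 261 normalised CPM in GC_WT and 198, 270 and 322 in FL_WT, so that the groups overlapped. Its log2 fold change was 0.39 (SE 0.21), and it was not called (edgeR adjusted p = 0.203). Srebf2, the factor that governs the pathway, was lower by a small amount (-0.37, edgeR adjusted p = 0.0257), a call not made without mice 06 and 08 (0.129).

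**Figure D3:**
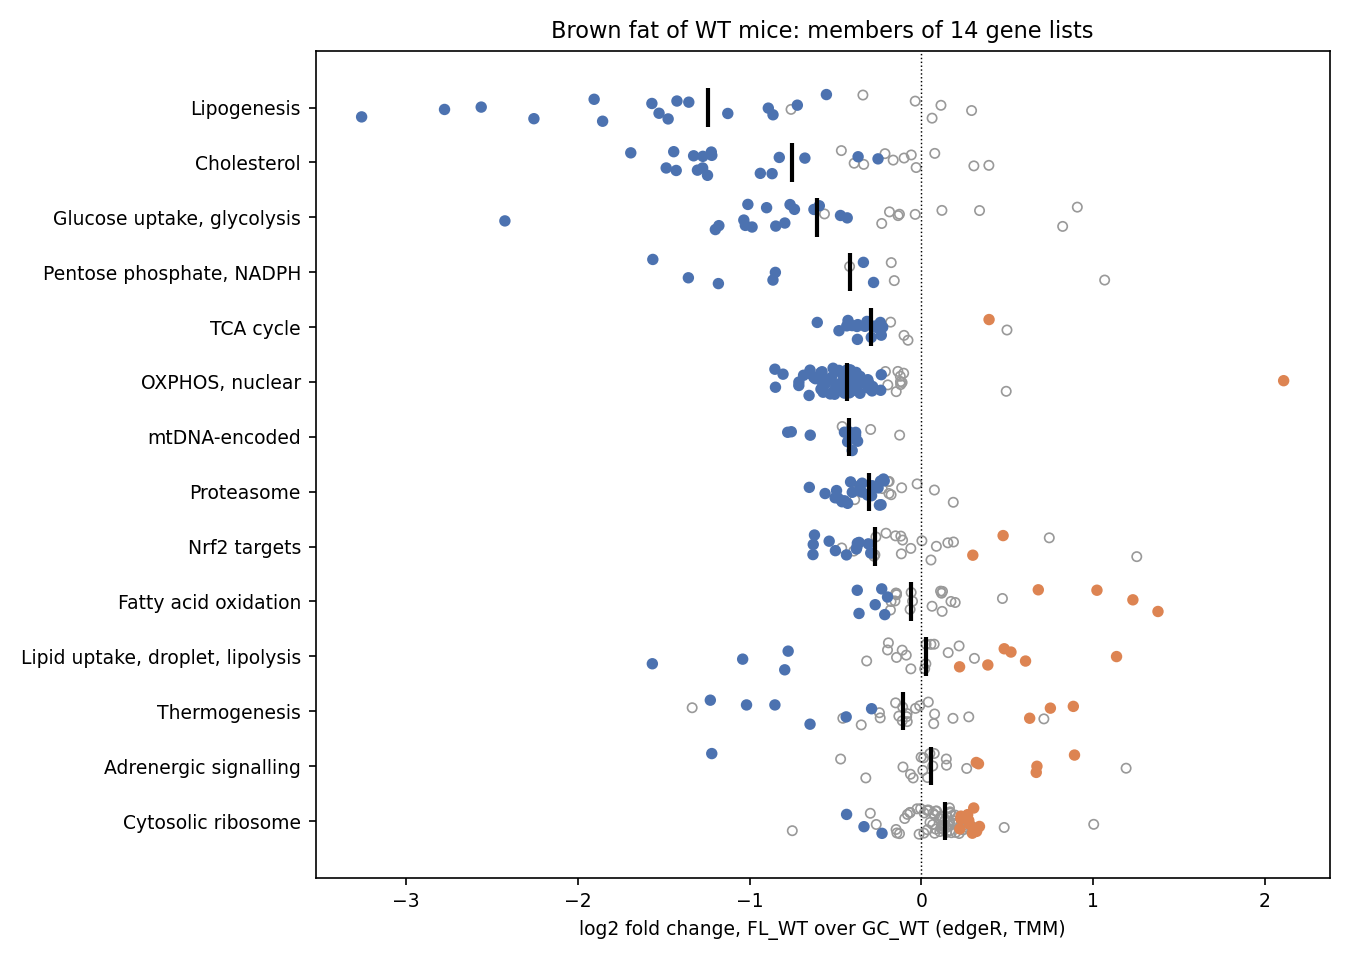
Members of 14 gene lists by their log2 fold change of FL_WT over GC_WT (edgeR, TMM scale). Blue points were called lower, orange points higher, open grey points were not called, and black bars are list medians. Lipogenesis, cholesterol and glucose metabolism reach far to the left, genes of the TCA cycle, oxidative phosphorylation (OXPHOS) and the proteasome form narrow groups just below 0, and thermogenesis and adrenergic signalling spread to both sides.

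Mitochondrial genes shifted by small amounts in great number. Of 78 nuclear genes of oxidative phosphorylation, 66 fell and 1 rose on the TMM scale, with a median of -0.43, and 65 fell without mice 06 and 08. On the log2(TPM + 1) scale limma called 31 of 77 lower and 8 higher, with a median of -0.11, and after rescaling without mitochondrial transcripts 61 lower and 1 higher, with a median of -0.28. Relative to the median gene of each scale these medians were -0.46, -0.42 and -0.45. Of all genes 10.3%, 3.63% and 7.61% were called lower on these scales. Uqcrq, a subunit of complex III, had 361, 492 and 609 normalised CPM in GC_WT and 252, 283 and 296 in FL_WT (-0.85, SE 0.09, edgeR adjusted p = 1.34e-06). Ndufs8, of complex I, had 146, 182 and 215 in GC_WT and 90.2, 106 and 117 in FL_WT (-0.80, SE 0.08). In both genes the groups were apart. The single gene called higher was Atp5g1, a subunit of ATP synthase with near-identical relatives in the genome, at a median of only 0.66 normalised CPM in GC_WT and 2.44 in FL_WT, and it was not called without mice 06 and 08 (edgeR adjusted p = 0.15).

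Of the 13 protein-coding genes of the mitochondrial genome, 10 fell on the TMM scale (7 without mice 06 and 08), with a median of -0.42, and 0 rose. On the TPM scale the median was -0.11 and 4 fell (-0.44 and -0.41 relative to the median gene on the TMM and TPM scales), and several have nuclear copies that share their reads, so their levels are uncertain. mt-Nd6, the only one of them coded on the light strand, had 703 to 934 normalised CPM in GC_WT and 374 to 626 in FL_WT (-0.78, SE 0.10, edgeR adjusted p = 2.23e-05). mt-Cytb, of complex III, overlapped between groups (-0.43, SE 0.10). Of 21 genes of the TCA cycle, 16 fell and 1 (Idh2) rose on the TMM scale with a median of -0.29, and 13 fell and 1 rose without mice 06 and 08. On the TPM scale 2 fell and 5 rose with a median of 0.02, and after rescaling 9 fell and 1 rose with a median of -0.14. The sign of the median thus flips on the TPM scale, which carries its own common shift, while relative to the median gene the list stood at -0.31, -0.29 and -0.31 on the 3 scales. Within it, Mdh1, the cytosolic malate dehydrogenase, had 341 to 385 in GC_WT and 195 to 270 in FL_WT (-0.61, SE 0.08). Sdhb of succinate dehydrogenase had 428 to 639 and 341 to 412 (-0.48, SE 0.08). Over all genes 10.3% were called lower and 8.83% higher on the TMM scale. On the TPM scale these shares were 3.63% and 55.7%, and after rescaling 7.61% and 32.2%.

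The genes of heat production itself showed no common direction. Of 29, 6 fell and 3 rose (4 and 3 of 30 without mice 06 and 08), while 10.3% of all genes were called lower and 8.83% higher. The median was -0.11 on the TMM scale and 0.15 on the TPM scale, which is -0.13 and -0.15 relative to the median gene. Ucp1 had 2075, 3007 and 3824 normalised CPM at the lowest, the median and the highest GC_WT mouse and 2304, 2926 and 4065 in FL_WT. The groups overlapped almost fully, and the log2 fold change was 0.07 (SE 0.22, edgeR adjusted p = 0.855). Dio2, the deiodinase that makes active thyroid hormone in brown fat, varied widely within each group, from 84.9 to 318 in GC_WT and from 47.6 to 378 in FL_WT, and had a log2 fold change of -0.24 (SE 0.51, edgeR adjusted p = 0.79). Ppargc1a, the coactivator of mitochondrial biogenesis, spanned 34.0 to 159 in GC_WT and 40.2 to 276 in FL_WT (0.71, SE 0.48, edgeR adjusted p = 0.314). Prdm16, a determinant of brown fat identity, had -0.01 (SE 0.23), and Cidea, a droplet protein of brown adipocytes, had -0.11 (SE 0.10) on the TMM scale and 0.19 on the TPM scale.

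Genes called lower within the thermogenic list were mostly of fuel handling or of the respiratory chain. Elovl3, an elongase of very long fatty acids that cold exposure induces in brown fat, had 114, 158 and 210 normalised CPM in GC_WT and 56.7, 68.7 and 73.5 in FL_WT (log2 fold change -1.23, SE 0.26, edgeR adjusted p = 0.002). Cox7a1 and Cox8b, subunits of cytochrome c oxidase typical of heart, muscle and brown fat, had -0.85 (SE 0.12) and -0.65 (SE 0.11). Acot11, a cold-induced thioesterase, had -1.02 (SE 0.21). Pm20d1 (-0.44) and Letmd1 (-0.29) were called with all flight mice and not without mice 06 and 08. Called higher in both fits were Slc27a2, a fatty acid transporter with acyl-CoA synthetase activity (0.63), the glycerol kinase Gk (0.75) and the creatine transporter Slc6a8 (0.89, SE 0.15).

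Adrenergic signalling showed a few increases. Of 22 genes, 5 rose and 1 fell (4 and 1 without mice 06 and 08), with a median of 0.06, while 8.83% of all genes were called higher and 10.3% lower. On the TPM scale 11 of 19 rose with a median of 0.36, where 55.7% of all genes were called higher. Relative to the median gene the list stood at 0.04, 0.05 and 0.03 on the TMM, TPM and rescaled TPM scales. Adrb1, the beta-1 receptor, had 9.70, 13.3 and 17.97 normalised CPM in GC_WT and 18.9, 23.6 and 37.6 in FL_WT, with no overlap (log2 fold change 0.89, SE 0.19, edgeR adjusted p = 0.00254). Adrb3, the beta-3 receptor through which brown fat mainly responds, had 133 to 264 in GC_WT and 128 to 303 in FL_WT (0.15, SE 0.18, edgeR adjusted p = 0.62). The adenylyl cyclases Adcy4 (0.67) and Adcy6 (0.32) and the CREB coactivator Crtc3 (0.33) rose, as did Pde4b, which degrades cyclic AMP, in the fit with all mice only. Rgs2, which dampens G protein signals, fell from a median of 166 to 64.8 (-1.22, SE 0.30, edgeR adjusted p = 0.00677).

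Genes for the uptake, storage and release of lipids divided between both directions. Of 25 genes of lipid uptake, droplets and lipolysis, 6 rose and 4 fell, with a median of 0.03, and 4 and 4 without mice 06 and 08. Of all genes 8.83% were called higher and 10.3% lower. Cd36, the fatty acid translocase, had 1360, 1501 and 1686 normalised CPM in GC_WT and 1917, 2129 and 2355 in FL_WT (log2 fold change 0.48, SE 0.07, edgeR adjusted p = 5.00e-05). Every flight mouse was above every ground mouse, as was the case in 3.48% of all genes. Aqp7, the glycerol channel of adipocytes, rose by 0.61 (SE 0.08) and Acsl1, which activates fatty acids, by 0.39, both with no overlap. Pnpla2, the first lipase of the droplet, had 3206, 3371 and 3638 in GC_WT and 3182, 3366 and 3998 in FL_WT (0.02, SE 0.06, edgeR adjusted p = 0.851). Lpl, which releases fatty acids from lipoproteins, had 0.03 (SE 0.13, edgeR adjusted p = 0.912). Fabp5 fell from a median of 49.5 to 24.6 (-1.04, SE 0.16), Acsl5 from 243 to 85.8 (-1.57), Plin3 from 102 to 57.5 (-0.78), and Gpd1, which makes the glycerol backbone from a glycolytic intermediate, from 7768 to 4367 (-0.80, SE 0.12). The abundant Fabp4 had a log2 fold change of -0.11 and was not called. Angptl4, an inhibitor of Lpl, rose from a median of 118 to 272 with no overlap (1.14, edgeR adjusted p = 0.0211), and had an adjusted p of 0.0758 without mice 06 and 08.

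Genes of fatty acid oxidation went in both directions. Of 27 genes, 4 rose and 6 fell on the TMM scale with a median of -0.06, and 3 and 3 without mice 06 and 08. On that scale 8.83% of all genes were called higher and 10.3% lower. On the TPM scale, where 55.7% of all genes were called higher, 22 rose and 0 fell with a median of 0.26, and after rescaling 10 rose and 2 fell with a median of 0.09. The sign of the median thus flips with the common shift of the scale, and relative to the median gene the list stood at -0.08, -0.05 and -0.07 on the TMM, TPM and rescaled TPM scales. Cpt1b, the isoform of carnitine palmitoyltransferase 1 that dominates in brown fat, had 590 to 701 normalised CPM in GC_WT and 584 to 889 in FL_WT (0.12, SE 0.10, edgeR adjusted p = 0.423). Among those that rose, Ehhadh, the bifunctional enzyme of peroxisomal oxidation, went from a median of 120 to 323 (1.23, SE 0.31, edgeR adjusted p = 0.00689). Cpt1a, the isoform typical of liver, rose from a median of 12.2 to 18.5 (0.68), and the thioesterase Acot2 from 83.2 to 171 (1.02, SE 0.13, edgeR adjusted p = 8.96e-06). Hadhb, of the trifunctional protein, fell from a median of 2147 to 1648 (-0.36, SE 0.05).

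Targets of Nrf2 were of interest because the series tests this factor. Of 32 tested, 12 fell and 2 rose on the TMM scale, with a median of -0.27, and 11 fell and 1 rose without mice 06 and 08. On the TPM scale 4 of 31 fell and 9 rose, with a median of 0.09, and after rescaling 8 fell and 5 rose, with a median of -0.08. The median changes sign on the TPM scale, and relative to the median gene it was -0.29, -0.22 and -0.25 on the TMM, TPM and rescaled TPM scales. On these scales 10.3%, 3.63% and 7.61% of all genes were called lower, and 8.83%, 55.7% and 32.2% higher. The members that fell on the TMM scale were mostly abundant redox enzymes. Gpx4, which reduces lipid peroxides, had 651, 787 and 982 normalised CPM in GC_WT and 454, 520 and 574 in FL_WT (log2 fold change -0.63, SE 0.08, edgeR adjusted p = 2.38e-05). Txn1 (-0.63), Gsta4 (-0.62) and Prdx1 (-0.54) likewise had no overlap between the groups. Gclc, the catalytic subunit for glutathione synthesis, rose (0.30, edgeR adjusted p = 0.0203). Hmox1, heme oxygenase 1, ranged from 4.86 to 19.0 in GC_WT and from 7.51 to 50.3 in FL_WT. The main edgeR fit did not call Hmox1 (1.25, SE 0.46, edgeR adjusted p = 0.0588), while DESeq2 did. Limma called it higher on the TPM scale (1.27, limma adjusted p = 0.0079) and after rescaling (1.19, limma adjusted p = 0.0296).

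Of 37 proteasome genes 26 fell and 0 rose on the TMM scale (median -0.30), and 25 and 0 without mice 06 and 08. On the TPM scale 4 of 36 fell and 4 rose (median 0.02), and after rescaling 14 fell and 0 rose (median -0.14). Relative to the median gene the proteasome median, which changes sign on the TPM scale, was -0.32, -0.29 and -0.31. Of all genes 10.3%, 3.63% and 7.61% were called lower on these scales. Psmd14, the deubiquitinase of the lid, had the largest of the named shifts, from 31.6 to 36.6 normalised CPM in GC_WT to 19.2 to 25.2 in FL_WT (-0.65, SE 0.08). Of 82 genes of the cytosolic ribosome, 12 rose and 3 fell (median 0.14), and 3 rose and 2 fell without mice 06 and 08. On the TPM scale 65 of 79 rose (median 0.45, beside 0.31 for the median gene). Of all genes 8.83% were called higher on the TMM scale and 55.7% on the TPM scale. Rpl8 had 81.5 to 99.5 in GC_WT and 101 to 136 in FL_WT (0.32, SE 0.07, edgeR adjusted p = 0.00313). Many ribosomal genes have processed copies in the genome that can share their reads, and the same holds for Rps4l and for Gm7329, which is itself such a copy (-1.79).

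Stress, hormone and clock genes gave few calls in edgeR. Over all genes edgeR called 8.83% higher and 10.3% lower, or 6.90% and 8.26% without mice 06 and 08. Of 18 immediate-early genes 2 rose, and 0 without mice 06 and 08 in edgeR (2 at an unadjusted p under 0.05). Called or not, 17 of the 18 had a log2 fold change above 0, with a median of 0.59 (17 and 0.45 without these mice). Of all 13574 genes, 7186 were above 0. On the TPM scale limma called 10 of 13 higher with a median of 0.68, where 55.7% of all genes were called higher. Relative to the median gene the list stood at 0.57, 0.38 and 0.36 on the TMM, TPM and rescaled TPM scales. Fos, whose normalised CPM was 1.06 to 10.6 in GC_WT and 7.41 to 33.4 in FL_WT, had a log2 fold change of 1.86 with all flight mice (edgeR adjusted p = 0.0301) and 1.24 without mice 06 and 08 (0.186). Of 22 genes of the integrated and ER stress responses 4 rose and 2 fell, and 1 (Hsp90b1, an ER chaperone, 0.30) rose without these mice. Among 16 heat shock genes 2 fell, Hspb8 (-0.71) and Hspe1 (-0.37), with the same count without these mice, and among 19 interferon-stimulated genes 2 fell (1 without). Among 20 genes of the insulin response 4 fell and 1 rose (3 and 0 without), and among 18 glucocorticoid-responsive genes 2 fell and 2 rose (3 and 1 without). In that list Dusp1, a phosphatase of MAP kinases, rose by 1.06 (SE 0.23), Hsd11b1, which regenerates corticosterone, fell from a median of 62.7 to 42.4 (-0.67), and Fkbp5 had -0.11 (SE 0.60). Among 16 genes of hypoxia and vessel growth 3 rose (2 without mice 06 and 08), of which Hif1a, a subunit of the oxygen-sensing factor, had 42.8 to 48.0 in GC_WT and 56.3 to 71.1 in FL_WT (0.51, SE 0.06, edgeR adjusted p = 3.37e-06). Of 23 genes of extracellular matrix edgeR called 0 (3 at an unadjusted p under 0.05, 1 lower without mice 06 and 08) and DESeq2 1, and of 12 proliferation genes 1, Ccnd1, rose (0.61, and the count without mice 06 and 08 was also 1). Among 16 genes of adipocyte identity 2 fell, with and without mice 06 and 08. These were Rbp4, the retinol-binding protein, from a median of 87.1 to 39.5 (-1.22, SE 0.18), and Nampt, which makes a precursor of NAD (-0.57, edgeR adjusted p = 0.0134), while Adipoq (adiponectin) was higher by 0.29 with all flight mice and not called without mice 06 and 08 (edgeR adjusted p = 0.12). Pparg, the master regulator of fat cells, had -0.25 (SE 0.16) and Lep, leptin, 0.24 (SE 0.58), both with wide overlap.

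Of 20 circadian genes edgeR called 2, a share near the 10.3% of all genes called lower. Both were lower, also without mice 06 and 08, and DESeq2 called 3. One of them, Bhlhe40, a repressor in the clock that also responds to hormones and hypoxia, had 35.3, 94.0 and 355 normalised CPM in GC_WT and 14.4, 28.8 and 38.5 in FL_WT (log2 fold change -2.31, SE 0.43, edgeR adjusted p = 0.000734), with 1 ground mouse, GC_WT 08, inside the flight range. Nr1d1, a repressor in the core loop, was called by DESeq2 and not by edgeR (0.98, edgeR adjusted p = 0.0595). Arntl (Bmal1) had 5.0 to 23.3 in GC_WT and 3.0 to 24 in FL_WT (0.14, SE 0.51), and the output gene Dbp 4.6 to 22.4 and 6.34 to 21.8 (-0.26, SE 0.55), and edgeR called neither. In Arntl and Dbp the mice of 1 group differed among themselves by far more than the groups did.

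Few markers of other cells that the tissue could hold were called, apart from muscle and blood. Over all genes edgeR called 8.83% higher and 10.3% lower. The 6 tested markers of red blood cells all fell, with a median of -1.49 (-1.43 without mice 06 and 08), and their summed TPM was 605 to 1092 in GC_WT and 337 to 538 in FL_WT. Hbb-bs, beta globin, had 123, 153 and 235 normalised CPM in GC_WT and 49.3, 58.3 and 72.6 in FL_WT (-1.43, SE 0.17, edgeR adjusted p = 4.86e-06), and Alas2, the first enzyme of heme synthesis in erythroid cells, went from a median of 6.95 to 2.51 (-1.54). Whether less blood in the tissue contributed to this was not tested. Of 47 markers together for macrophages (17), antigen presentation (8), lymphocytes (4), neutrophils (2), fibroblasts (10) and white fat or epididymis (6), edgeR called 0 with all flight mice (4 at an unadjusted p under 0.05), DESeq2 called 0, and edgeR called 1 without mice 06 and 08. Of 12 endothelial markers Cldn5, a tight-junction protein, rose (1.20), and of 9 Schwann cell markers S100b, which adipocytes also express, fell (-0.85), each count being 1 also without mice 06 and 08. Of the 13 brown adipocyte markers 2 rose and 3 fell, and 0 rose and 3 fell without mice 06 and 08.

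The largest changes were ranked among genes that reached a mean TPM of 5 in a group and had no overlap of TPM between the groups. These genes were also called in the same direction with and without mice 06 and 08. That flight and ground mice lie apart in the ranked genes follows from this choice and is no result. The largest increase was in Gm13301 and the largest decreases in Gm32468, Ttc25 and Acly. Cntfr, the receptor subunit that binds ciliary neurotrophic factor, stood out among the annotated genes that rose, with 7.45, 17.7 and 20.5 normalised CPM in GC_WT and 60.4, 80.7 and 134 in FL_WT (log2 fold change 2.36, SE 0.26, edgeR adjusted p = 1.69e-06). All flight mice were far above the highest ground mouse. Its neighbour Il11ra1, a receptor subunit of the same family, had -0.01. Cyp4b1, a monooxygenase, had 51.2 to 83.2 in GC_WT and 114 to 281 in FL_WT (1.65, SE 0.18), Tnfrsf12a, the receptor for TWEAK, rose by 1.75 (1.23 without mice 06 and 08), and Lgr6, an R-spondin receptor, by 1.40 (SE 0.26). Among the genes that fell, Sorl1, a sorting receptor, went from 48.6 to 130 in GC_WT to 10.2 to 25.8 in FL_WT (-2.43, SE 0.28, edgeR adjusted p = 3.37e-06), and the non-coding Gm32468 from 3.42 to 9.63 to between 0 and 0.592 (-4.98, SE 0.46). Aacs, which makes acetoacetyl-CoA in the cytosol for lipid synthesis, fell from a median of 377 to 125 (-1.74), and Isyna1, which makes inositol phosphate from glucose 6-phosphate, from 8.05 to 2.50 (-1.70). Higher were also Dhrs9, a retinol dehydrogenase (1.3), Emp1, a membrane protein (1.28), and Cyr61, a secreted matrix protein (1.28).

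Some of the largest changes lay beside each other in the genome (GRCm38). Ttc25, at chr11:100545607-100572568 on the plus strand, codes for a protein of ciliary dynein docking, and its start lies 17.6 kb from that of Acly, at chr11:100476353-100528000 on the minus strand. Ttc25 had 6.60, 12.4 and 24.9 normalised CPM in GC_WT and 0.224, 0.474 and 1.12 in FL_WT (-4.80, SE 0.40, edgeR adjusted p = 8.28e-08). The genes on either side, Klhl11 (-0.16) and Cnp (0.16), were not called. On chromosome 12, 4 thioesterase genes in a row were higher, Acot2 (1.02), Acot1 (1.26), Acot4 (1.44) and Acot3 (2.24, at no more than 3.42 normalised CPM), while the flanking Riox1, Acot6 and Dnal1 were not called. These genes are close paralogs whose reads may be split between them. On chromosome 4, Orm1 (-1.22) and Orm3 (-1.99), genes of the acute-phase orosomucoids, were lower, and Orm2, the next gene, at no more than 0.842 normalised CPM, was not called (-1.01, edgeR adjusted p = 0.0684). Orm1 itself had 70.5 to 99.7 in GC_WT and 30.2 to 43.6 in FL_WT. Gm13301 (2.72), Gm5859 (1.76) and Gm10600 (1.82) lie next to each other on chromosome 4 in a stretch with near-identical copies, so their levels are uncertain, and in Nrf2-KO mice the log2 fold change of Gm13301 was -1.33 (edgeR adjusted p = 0.361).

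**Figure D4:**
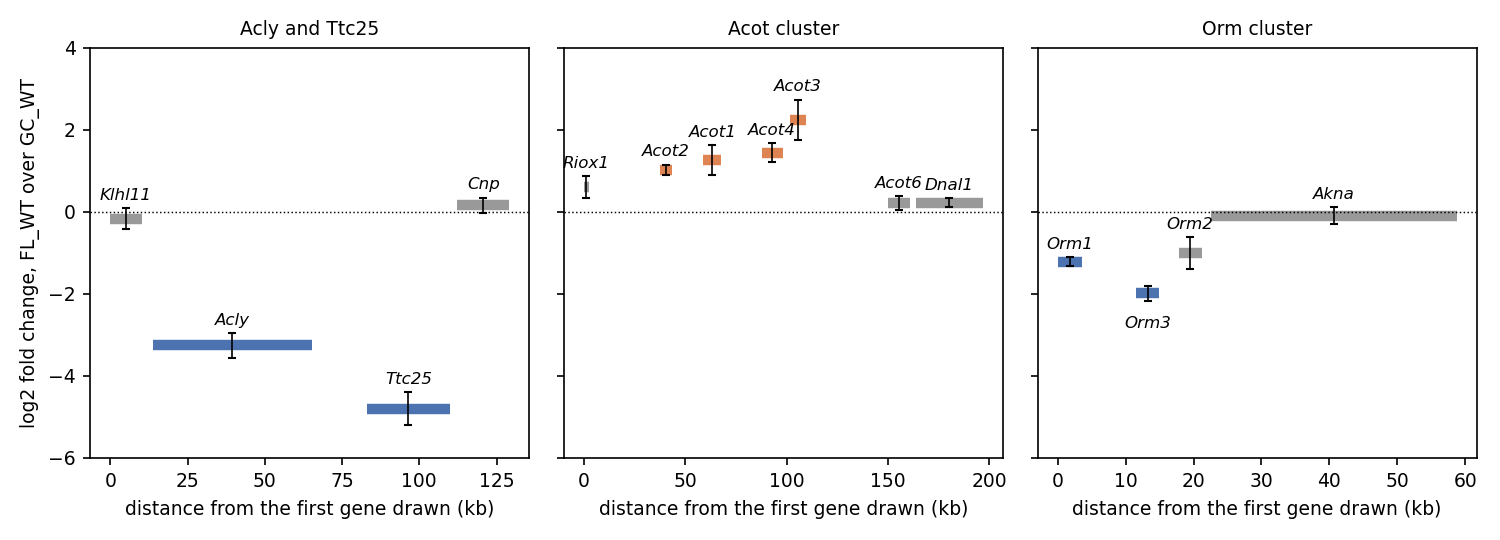
Neighbouring genes with their log2 fold change of FL_WT over GC_WT (y axis, bars ± SE from edgeR) against the distance in kb from the first gene drawn (x axis). Boxes span each gene, in blue where called lower, orange where called higher and grey where not called. Acly at -3.26 and Ttc25 at -4.80 lie side by side between genes near 0, 4 Acot genes lie between 1.02 and 2.24, and Orm1 and Orm3 lie at -1.22 and -1.99.

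The same comparison was made in Nrf2-KO mice, with its own ground group, to ask whether the response of WT mice depended on Nrf2. In edgeR, 0 of 13574 genes (0.00%) differed in flight effect between Nrf2-KO and WT mice, although 1127 had an unadjusted p under 0.05, and DESeq2 called 106. The smallest adjusted p was 0.0722 among the genes named here. The flight effect of Acly was -3.26 in WT and -4.40 in Nrf2-KO mice (adjusted p of the difference 0.387), of Fasn -2.56 and -3.48 (0.365), of Me1 -1.56 and -2.18 (0.148), of Slc25a1 -1.47 and -2.47 (0.0722) and of Pdhb -1.03 and -1.71 (0.0722). Hif1a had 0.51 in WT and 0.13 in Nrf2-KO mice (0.0926). Within Nrf2-KO mice 33.5% of the 13574 genes were called, 17.0% higher and 16.6% lower, more than in WT mice, so that counts of both genotypes cannot be read side by side. Muscle transcripts were higher in flight Nrf2-KO mice as well, with 23 of 29 muscle genes called and a median of 6.47. The Nrf2-KO values here keep all 5 flight mice. In a fit that left out FL_WT mice 06 and 08 and FL_KO mouse 11, edgeR again called 0 genes for the difference between genotypes. For lipogenesis 18 of 22 genes fell in Nrf2-KO mice with a median of -1.50, for cholesterol 19 of 28, for glucose metabolism 19 of 26 with 3 higher, and for nuclear oxidative phosphorylation 73 of 78. A difference that misses the threshold with 5 or 6 mice per group does not show that both genotypes responded alike.

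White fat of the same 12 mice was used to see which differences were larger in brown fat. The flight effect differed between iBAT and eWAT in 1440 of 14892 genes (9.67%), 712 with the higher value in iBAT (4.78%) and 728 with the lower (4.89%), in an edgeR fit with the mouse as a block. Without mice FL_WT 06 and 08 the counts were 435 and 393. Of 28 cholesterol genes 14 had a lower effect in iBAT and 0 a higher one, with a median difference of -0.66. Of 25 glucose genes 10 were lower and 0 higher (median difference -0.44), of 78 nuclear genes of oxidative phosphorylation 17 and 0 (-0.33), and of 37 proteasome genes 14 and 0 (-0.31). Fdps had a flight effect of -1.69 in iBAT and 0.01 in eWAT (difference -1.72, SE 0.21, edgeR adjusted p = 0.000507), and Eno1 -1.20 and 0.19 (difference -1.42, SE 0.18, edgeR adjusted p = 0.000573). Pgd had -1.36 and 0.06 (difference -1.42), and Me1 -1.56 and -0.44 (difference -1.16).

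Lipogenesis fell in both fat depots, and its members divided between them. In eWAT 2057 of 15317 genes were called (13.4%), 6.65% higher and 6.78% lower. Of 22 genes of lipogenesis, 13 fell in eWAT with a median of -0.76, 8 had a lower effect in iBAT and 2 a higher one. Acly had -3.26 in iBAT and -0.56 in eWAT (difference -2.72, SE 0.29, edgeR adjusted p = 0.000203), and its neighbour Ttc25 a difference of -4.01. Acaca had a difference of -1.36 and Scd2 of -2.51, both called. Fasn, at -2.56 and -1.89, did not differ beyond the error (difference -0.72, SE 0.30, edgeR adjusted p = 0.145), nor did Scd1, at -1.35 and -1.06 (difference -0.24, SE 0.23, edgeR adjusted p = 0.547). Gpam (difference 1.28) and the desaturase Fads1 (0.95) fell in eWAT and not in iBAT. Fabp5 was lower in iBAT (-1.04) and higher in eWAT (0.77), as was Hsd11b1 (-0.67 and 0.63), and each difference was called (edgeR adjusted p = 0.00013 and 4.4e-05). Cntfr had 2.36 in iBAT and -0.63 in eWAT, where it was not called (difference 3.01, SE 0.26, edgeR adjusted p = 3.7e-05). For thermogenesis 1 gene had a higher and 1 a lower effect among 28 tested, and Ucp1, at 0.07 and -1.53, had a difference of 0.97 (SE 0.83, edgeR adjusted p = 0.492). The value of each depot and the difference come from separate fits, so a difference need not equal the gap between the depot values.

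**Figure D5:**
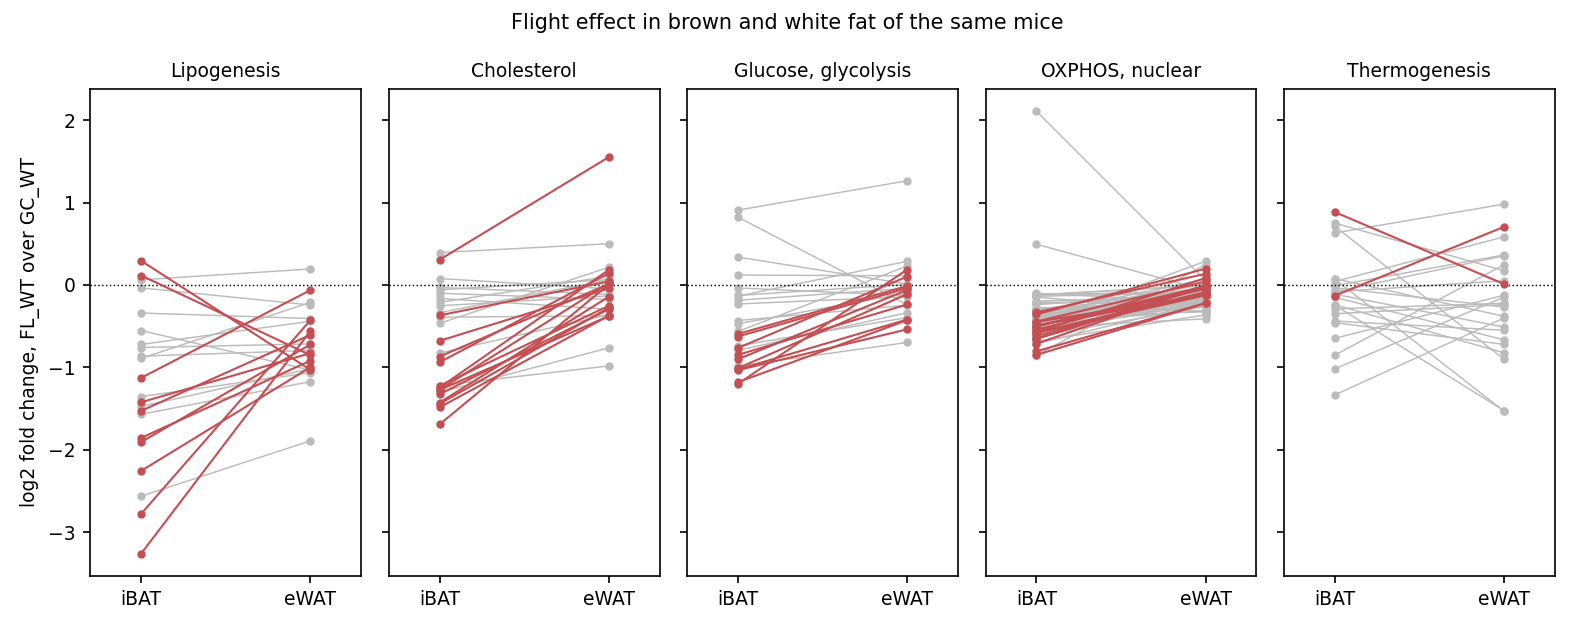
Flight effect (log2 fold change of FL_WT over GC_WT) in iBAT and eWAT of the same 12 mice, for the members of 5 gene lists. Each line is a gene, in red where edgeR called the difference between the depots and grey where it did not. In cholesterol, glucose metabolism and oxidative phosphorylation the red lines start below 0 in iBAT and end closer to 0 in eWAT, apart from that of Abcg1, a cholesterol exporter, which runs from 0.31 to 1.55. The median differences of these lists are -0.66, -0.44 and -0.33.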

How the data were processed

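RNA of 12 WT iBAT libraries was analysed, with the groups taken from the labels. The authors isolated poly(A) RNA, made strand-specific libraries, sequenced single reads, mapped them to mm10 with STAR 2.6.1 and quantified genes with RSEM 1.3.1. Both the expected counts and the TPM in the deposited table are RSEM output, without further normalisation or filter. RSEM divides reads that fit several genes between them, and the strand setting of the counting is not given in the sources used here. The authors also deposited FPKM columns, which were not used.

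Expected counts were rounded and fitted with edgeR 4.0.16 in R 4.3.3 (filterByExpr, TMM, quasi-likelihood test) in 1 fit of the 4 iBAT groups, with FL_KO mouse 04 left out as in the study. TMM sets the middle of the distribution of ratios to be equal between libraries, whereas TPM are shares of a fixed total. The iBAT against eWAT comparison had its own fit of the WT libraries with the mouse as a block. The eWAT values are FL_WT over GC_WT in a separate fit of the 4 eWAT groups, without FL_KO mouse 04. P-values took the Benjamini-Hochberg adjustment over the genes of each fit and measure the spread between mice. The flight effect in WT iBAT was recomputed with DESeq2 1.42.0, with limma 3.58.1 on log2(TPM + 1), and with other scalings, filters, blocks and left-out mice. The differences between genotypes and between depots were recomputed with DESeq2 and some of these settings, but not with limma on TPM. The code was tested on simulated data. Coordinates are from GENCODE vM21 on GRCm38, while the deposited table uses vM20, and genes whose versioned identifier differs are given without coordinates.

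The libraries and gene lists were chosen with earlier results of these data known. Genes named were, per function list, up to 4 with the smallest adjusted p among those called in the same direction with and without FL_WT mice 06 and 08, a list of 25 well-known genes of adipose tissue, and the 12 genes with the largest change in each direction among those called in both fits with a mean TPM of at least 5. All other genes named, such as Idh2, Atp5g1, Pdk4, Angptl4 and the neighbours on the chromosome, were chosen after their values were seen. Values of a few single genes are not reported here. At this depth a gene at 1 CPM rests on about 16 counts per library, so ratios below that level are imprecise.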

Additional observations from a re-analysis of the deposited data

Results flagged for a closer look

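Among 143 named genes, each group of 6 WT mice was examined for a mouse far from the other 5, by Dixon's test of the gap to the nearest mouse over the group's range at its 95% critical value. This gave 21 flags in 286 groups, and chance flags about 1 in 20 groups. All values here are normalised CPM. Muscle genes were flagged in the ground group as well: GC_WT mouse 03 had 15.2 for Acta1, 5.85 for Ckm and 6.12 for Tnnt3, against at most 0.539, 0.342 and 0.259 in the other ground mice, and GC_WT 05 had 55.1 for Myl1 against 44.2 to 47.4. The same GC_WT mouse 03 was highest for Hbb-bs with 235 (the others 123 to 161) and for the cyclin Ccnd1 with 5.92 (3.63 to 4.32).

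FL_WT mouse 03 stood above the other flight mice for 3 genes, with 378 for Dio2 (47.6 to 161), 233 for Pparg (137 to 170) and 21.8 for Dbp (6.34 to 10.9). FL_WT mouse 07 was highest for genes that fell in flight, with 348.5 for Ppp1r3b (124 to 166), 1.12 for Ttc25 (0.224 to 0.49) and 0.592 for Gm32468 (0 to 0.175), and for Ccnd1 with 9.76 (5.45 to 6.87). FL_WT mouse 05 was highest for Insig1 with 229.7 (150.6 to 176), and FL_WT 06 lowest for Alas2 with 1.11 (2.33 to 2.68).

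Mouse 10 was flagged in both groups for Cntfr, lowest among ground mice with 7.45 (16.3 to 20.5) and highest among flight mice with 134 (60.4 to 85.5). These are different animals that share a number. GC_WT 10 was also highest for Fgf21 with 1.1 (0.0599 to 0.413). GC_WT 08 was highest for Lep with 34.6 (3.65 to 14.6) and lowest for Mdh1 with 341 (373 to 385) and Psmb7 with 87.0 (102 to 110).

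The flight effect differed between iBAT and eWAT of the same WT mice in 1440 genes by edgeR's test of the difference.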

How the results depend on the processing

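The count of genes called depended on the scale of the values. Against 1199 higher and 1401 lower, limma gave 4460 and 291 on log2(TPM + 1), 4468 and 288 with a pseudocount of 0.1, 5045 and 400 without a filter, 4121 and 269 without mice 06 and 08, and 2575 and 608 after TPM were rescaled without mitochondrial transcripts, the last pair of alternatives being added after the data were seen. Of the 1401 genes lower in edgeR, 1076 were fitted on log2(TPM + 1), where 287 were called lower, 296 had the opposite sign and 9 were called higher. After rescaling, 603 of 1061 were called lower and 0 higher. Without a filter on low counts edgeR called 799 higher. Leaving out 1 mouse at a time gave 914 to 1190 higher and 1156 to 1450 lower. The difference between genotypes, 0 higher and 0 lower, became 20 and 86 with DESeq2, 4 and 13 with FL04, 2 and 2 with a muscle covariate, 1 and 0 without a filter, 1 and 0 without mice 06 and 08, and 1 and 4 with a replicate block (the covariate and both settings with 1 and 0 were also added later). The difference between depots, 712 and 728, became 435 and 393 without mice 06 and 08.

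For the flight effect the replicate block gave 1266 higher and 1470 lower. Flight and ground mice of the same number are different animals. The correlations of their deviations ran from -0.17 to 0.215 with no mouse closest to its own number. Some genes still followed the number in both groups. Fkbp5 had 56.3 to 72.35 normalised CPM in GC_WT 03, 05 and 06 and 27.0 to 30.6 in GC_WT 07, 08 and 10. In FL_WT the same numbers had 69.8 to 78.1 and 7.57 to 21.6. Arntl was divided in both groups too, and Dbp in GC_WT only. What the number stands for was not tested.

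Among named genes the sign changed for muscle genes: Ckm had -0.35 without mice 06 and 08, -0.38 without these and FL_KO 11, and -0.13 with a muscle covariate, Tnnt3 -0.89, -0.92 and -0.57 (and -0.058 on TPM without mice 06 and 08), and Myl1 -0.37 without the 3 mice. On TPM, Cidea had 0.19 at both pseudocounts and 0.23 without mice 06 and 08, Pex11a 0.0425 with and without a filter, 0.0437 with a pseudocount of 0.1 and 0.0629 without these mice, and Srebf2 0.0343 without them. The cause was not tested.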
